A study of Mus musculus with 9 samples.

Results

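The genes described here are 43 that copy DNA or supply its building blocks: they license replication origins, unwind and copy the DNA, join and package the new strands, or make deoxynucleotides. They were taken by gene symbol from the 54532 genes of the deposited table. The choice was by function and used no measured value, but earlier results of these data were known when it was made. Each symbol occurred once, and 42 of the 43 had enough counts to be tested. The exception was Fen1, the nuclease that trims the flaps of Okazaki fragments, with 4 to 15 counts in each library.

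The study measured messenger RNA of ST2 cells, a mouse stromal line from bone marrow that can form osteoblasts. The cells were wild type and received vehicle, recombinant human Wnt3a (rhWnt3a, 50 ng/ml), or rhWnt3a and 20 µM OSMI, an inhibitor of the O-GlcNAc transferase OGT, and were taken at 72 h. Each group held 3 libraries. The third group was taken as rhWnt3a combined with OSMI from its sample titles, although its treatment label names OSMI alone. There was no group with OSMI and without rhWnt3a, and a single cell line was studied.

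Replication starts from origins marked by the origin recognition complex, on which Cdc6 and Cdt1 load the ring-shaped MCM2-7 helicase. At the start of S phase, Cdc45 and the GINS complex turn this ring into the active helicase, polymerase alpha with its primase lays down primers, and polymerases delta and epsilon extend them, held to DNA by the clamp Pcna that the RFC complex loads. Many of these genes are known targets of E2F transcription factors, which switch them on as cells pass from G1 into S phase, so their messenger RNA is widely read as a sign of cycling cells.

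The libraries held 16135898 to 17583945 counts, and the 43 genes took 0.0618% to 0.0868% of them. CPM, the counts divided by the library total after TMM scaling, are used below within a gene, and FPKM, which also divides by gene length, between genes. A gene was called when edgeR's quasi-likelihood test gave an adjusted p under 0.05, over 14004 tested genes, and its log2 fold change exceeded 0.5 in either direction. In every group there was 1 library that lay apart from the others: vehicle replicate 3, rhWnt3a replicate 2 and rhWnt3a + OSMI replicate 3 had mean squared log2 differences of 0.392 to 0.439 to the rest of their group, against 0.242 to 0.286 for the other 6 libraries. Values without these 3 libraries stand beside some of the results that they touch. They were picked by their distance in these same data, and 2 libraries stay in each group. This narrows the spread within groups, so p-values of these fits tend to be too small and are no separate support. Axin2, a feedback target of Wnt signaling, was at 0.244 to 0.891 CPM with vehicle, 16.8 to 21.6 CPM with rhWnt3a and 10.6 to 17.3 CPM in the third group. The stromal markers were present, with a summed level of 20590 to 27180 CPM with vehicle, 17040 to 20110 CPM with rhWnt3a and 8545 to 16910 CPM with rhWnt3a + OSMI. Against vehicle, 5 of the 9 stromal markers tested were lower with both agents and none was higher, and the part of this change in the results below was not tested. The summed levels of 8 hematopoietic, 4 endothelial and 4 epithelial markers reached at most 1.98, 1.28 and 0.191 CPM, and all 4 epithelial markers and 6 of the hematopoietic ones, Ptprc among them, had 3 counts or fewer throughout.

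Promoters of the genes were read first, for short sequences that part of the group holds. In the RefSeq sequences of GRCm38.p6, 36 of the 43 genes had 41 promoters of 300 bases, from 250 before to 50 after the start of transcription. The E2F letters TTTCCCGC or TTTGGCGC were searched on both strands and were found in 11 of the 41 promoters (26.8%), against 1.56% of 32851 promoters of all genes. They were in the promoters of Cdc6, Cdt1, Gins3, Mcm3, Mcm5, Mcm6, Mcm7, Pola1, Pold1, Pole2 and Rfc3. The CCAAT box, bound by NF-Y, was in 61.0% of the promoters against 37.4% of all, and the cell cycle element TTTGAA, known from late cell cycle genes, in 9.76% against 17.9%. A match says only that these letters stand in the window. Other forms of the E2F site were not searched, so a window without a match may still hold one.

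The promoters below show genes with and without these letters, 5′ to 3′ on the strand of the gene, with the E2F and CCAAT letters (or their reverse complements) in capitals. Of the called genes that were matched to a promoter, only Rfc3 (chr5:151651159-151651458, minus strand) holds the E2F letters searched. In Rfc3 the E2F letters begin at base +1, the start of transcription. Mcm3 (chr1:20820263-20820562, minus strand) and Mcm6 (chr1:128359656-128359955, minus strand) hold them at 2 places each, from +20 and +39 in Mcm3 and from -110 and -47 in Mcm6. Mcm2 (chr6:88898731-88899030, minus strand) has none.
Rfc3: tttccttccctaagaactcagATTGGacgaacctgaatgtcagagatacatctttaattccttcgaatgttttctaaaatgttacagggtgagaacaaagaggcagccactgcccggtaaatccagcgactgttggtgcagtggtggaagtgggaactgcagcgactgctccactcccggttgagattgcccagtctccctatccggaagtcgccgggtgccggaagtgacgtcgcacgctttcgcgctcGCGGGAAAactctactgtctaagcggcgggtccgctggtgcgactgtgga
Mcm3: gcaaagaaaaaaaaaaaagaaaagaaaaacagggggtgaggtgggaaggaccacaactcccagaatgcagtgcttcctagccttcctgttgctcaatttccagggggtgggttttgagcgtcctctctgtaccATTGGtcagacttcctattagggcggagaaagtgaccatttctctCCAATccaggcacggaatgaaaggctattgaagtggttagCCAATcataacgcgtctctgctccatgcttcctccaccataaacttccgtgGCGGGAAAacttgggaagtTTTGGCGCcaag
Mcm6: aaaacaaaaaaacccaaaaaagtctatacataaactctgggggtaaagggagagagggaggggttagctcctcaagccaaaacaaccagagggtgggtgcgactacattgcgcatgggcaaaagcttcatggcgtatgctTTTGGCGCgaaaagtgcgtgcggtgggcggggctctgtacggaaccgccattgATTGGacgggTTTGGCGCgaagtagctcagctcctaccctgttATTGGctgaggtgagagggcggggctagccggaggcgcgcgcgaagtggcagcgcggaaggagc
Mcm2: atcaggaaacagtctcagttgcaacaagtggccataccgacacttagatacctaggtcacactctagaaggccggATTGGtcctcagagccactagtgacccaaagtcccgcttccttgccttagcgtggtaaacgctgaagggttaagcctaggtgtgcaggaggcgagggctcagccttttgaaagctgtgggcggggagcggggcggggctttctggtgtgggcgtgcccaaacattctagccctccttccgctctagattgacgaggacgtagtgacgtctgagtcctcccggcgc

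No match was found in the windows of Dut, Chaf1b, Rpa1 or Lig1 either, and Mcm4, Gins1, Gins2, Gins4, Pole, Prim2 and Rfc2 were not matched to a promoter.

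The genes differed widely in level. Pcna, the sliding clamp, had the highest mean FPKM over the 9 libraries (23.0), followed by Rfc1, the large subunit of its loader (12.02), and Rpa1, the large subunit of the protein that coats single-stranded DNA (11.1). A mean above 10 FPKM was reached by 6 genes, 8 lay between 5 and 10, 18 between 1 and 5, and 11 under 1, with a median of 2.11 FPKM. The parts of a complex were unequal: Rfc1 stood at 12.02 FPKM while Rfc2 to Rfc5 had 1.39 to 2.44, and Mcm5 stood at 1.76 while the other MCM2-7 genes had 5.95 to 8.27. The licensing factor Cdc6 (0.246), the checkpoint mediator Clspn (0.202) and Fen1 (0.200) were lowest. Of the exon bases of Fen1, 84.2% overlap Gm10143 and Tmem258 on the other strand, and of those of Gins2, 67.3% overlap Gse1. With the strand setting of the counting not given, part of their reads may not have been counted for them. The low value of Fen1 is therefore not a sure measure of its level.

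**Figure D1:**
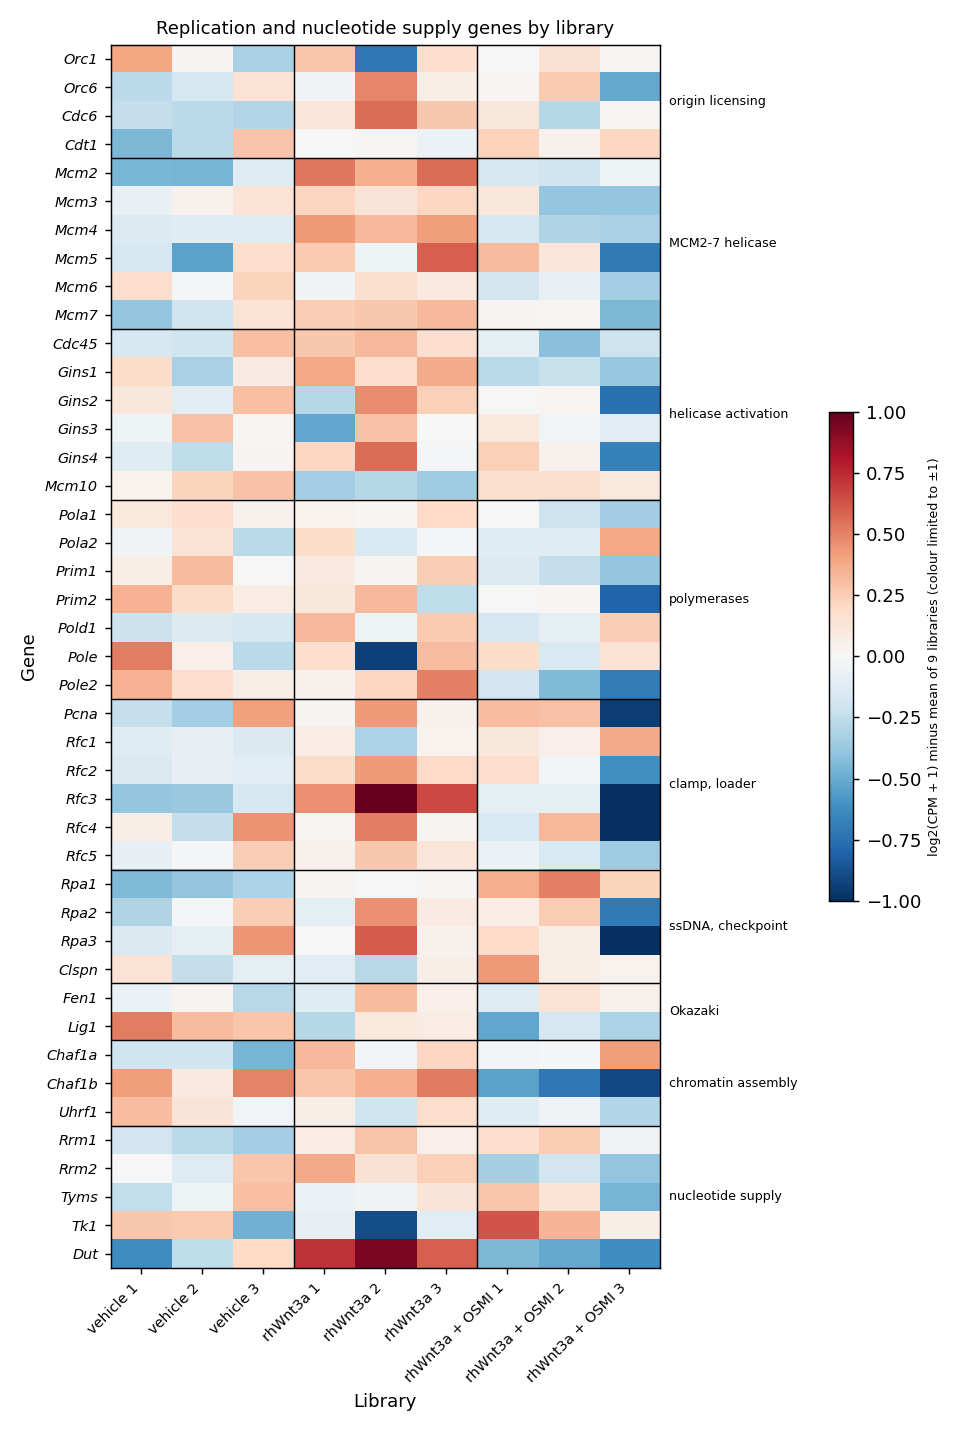
Level of the 43 genes in each of the 9 libraries, as log2(CPM + 1) minus the mean of that gene over the libraries (red, above; blue, below; colour limited to 1 in either direction), with the genes ordered by role. Mcm2, Mcm4 and Dut stand out in red in all 3 rhWnt3a libraries, Chaf1b in blue in all 3 rhWnt3a + OSMI libraries, and rhWnt3a + OSMI replicate 3 holds the lowest value of all libraries for 24 genes.

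The first comparison, rhWnt3a against vehicle, asks how the replication genes stood after 72 h of Wnt stimulation. Mcm2, Mcm4, Rfc3 and Dut were higher with rhWnt3a, and no gene of the 43 was called lower (for Mcm10 and Lig1 this depended on the fit, as given with their values). The 4 calls among 42 tested genes are 9.52%, where 2.92% of all tested genes were called higher, 5.86% lower and 8.78% in either direction. The log2 fold changes of the 42 ranged from -0.68 to 1.22, with a median of 0.13 (all genes 0.04), and 29 of them (69.0%) lay above 0, where 54.6% of all genes did and 45.4% lay below. The 3 rhWnt3a libraries were all above the 3 vehicle libraries for 11 genes (26.2%), where this held for 12.2% of all genes, and all below for 2 genes, where it held for 14.2%. On unadjusted p-values with the same fold threshold, 6 genes passed higher and 1 lower (all genes 5.78% and 9.61%). With the 3 libraries that lay apart left out, 6 genes were called higher and 1 lower, and the median was 0.16. Of all 14111 genes tested in that fit, 946 were called higher and 1611 lower. In bulk RNA, a change in the share of cells that express a gene and a change in the RNA per cell cannot be told apart.

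The second comparison, rhWnt3a + OSMI against rhWnt3a, asks what the inhibitor of OGT changed in Wnt-treated cells. Mcm2, Mcm4, Dut and Chaf1b were lower with OSMI, and no gene was called higher. These are again 9.52% of the 42, where 3.05% of all genes were called lower, 1.69% higher and 4.74% in either direction. The median log2 fold change was -0.34 (all genes -0.01), over a range of -1.34 to 0.79, and 31 of the 42 genes (73.8%) lay below 0, where 51.5% of all genes did and 48.5% lay above. All 3 libraries with OSMI were below all 3 rhWnt3a libraries for 17 genes (40.5%) and above them for 4 (9.52%), where this held for 17.0% and 16.7% of all genes. On unadjusted p-values, 2 passed higher and 9 lower (all genes 5.53% and 10.7%). With the 3 libraries that lay apart left out, the median was -0.22 (all genes -0.002) and 25 of 42 genes lay below 0. In that fit 8 genes were called lower and 1, Tk1, higher. Of all 14111 genes tested there, 563 were called higher and 1226 lower.

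The third comparison, rhWnt3a + OSMI against vehicle, sets cells given both agents beside untreated ones. Rpa1 was called higher, and Chaf1b and Lig1 lower. They are 2.38% and 4.76% of the 42, where 4.84% of all genes were called higher, 9.34% lower and 14.2% in either direction. The median was -0.08 (all genes -0.01) over a range of -1.29 to 0.76, 26 genes (61.9%) lay below 0 against 50.6% of all (49.4% above), and the groups did not overlap for 4 higher and 10 lower genes (9.52% and 23.8%, against 19.3% and 19.5% of all genes). On unadjusted p-values, 1 passed higher and 3 lower (all genes 8.60% and 14.1%). In the 6 libraries left without those that lay apart, the median was 0.00, with 21 genes on each side of 0. The rhWnt3a libraries stand in the first and second comparison, and each pair of comparisons shares a group in this way, so the values of a gene are given side by side below and not as repeats of each other.

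**Figure D2:**
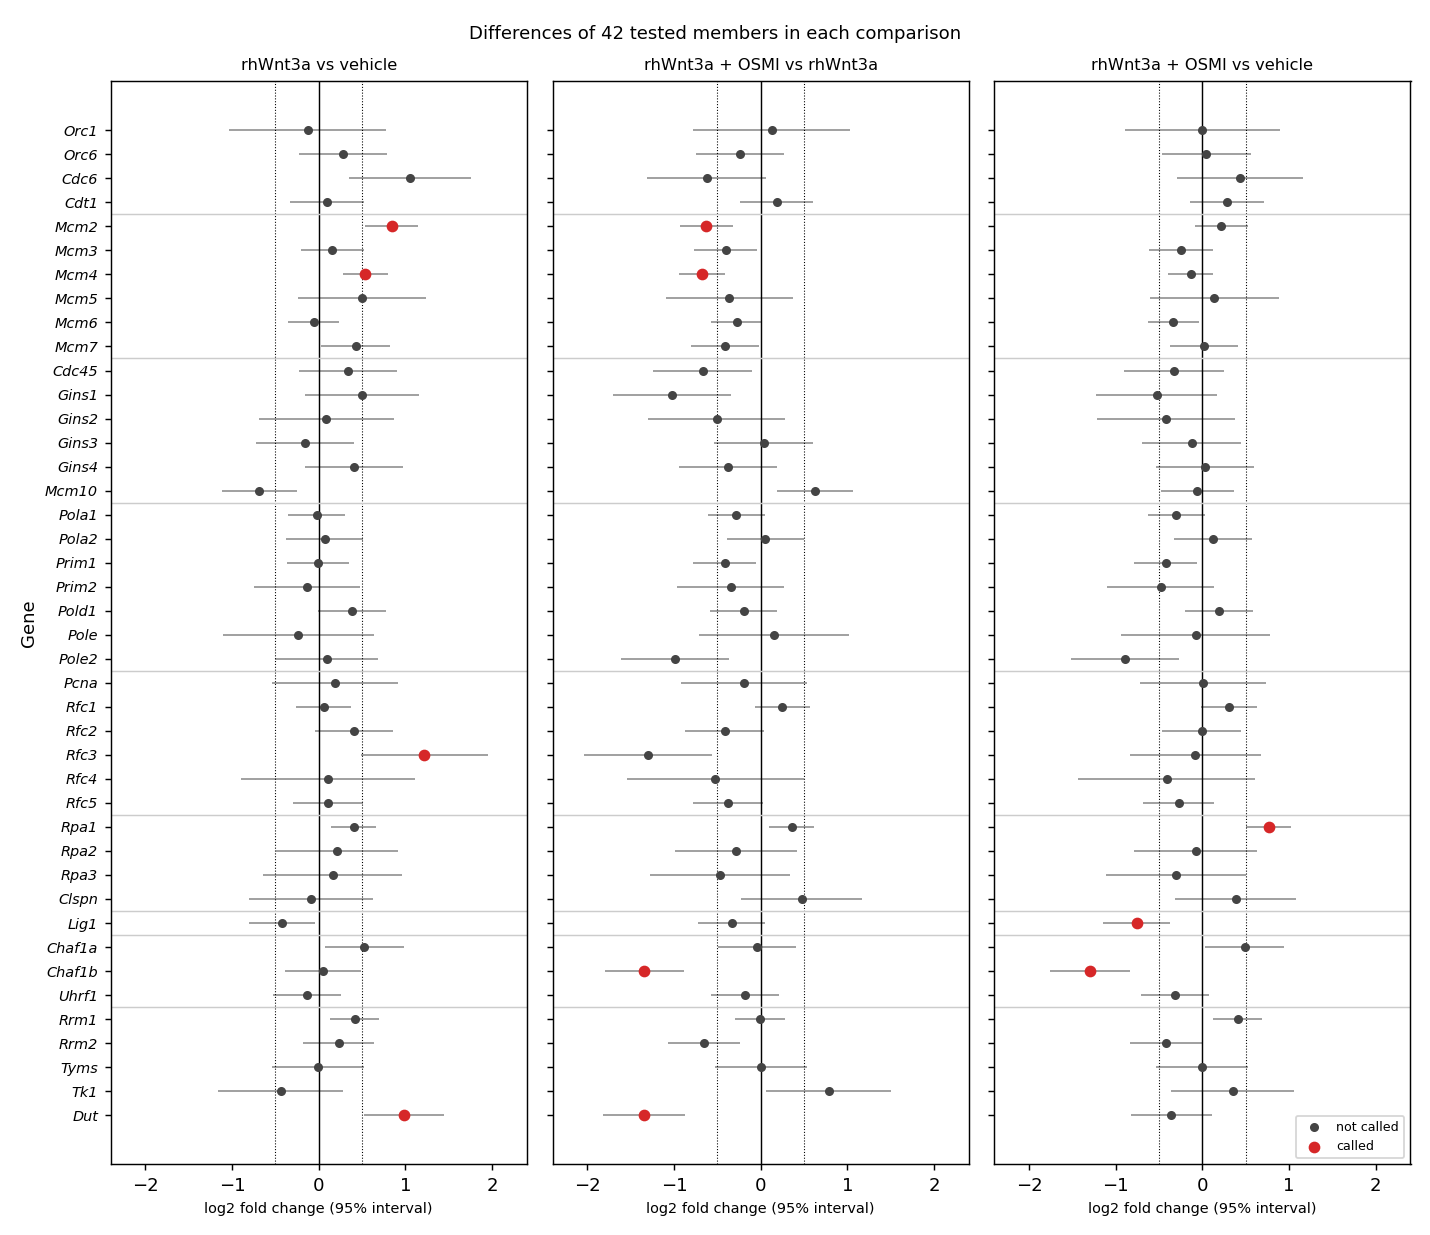
Log2 fold change (points) with its 95% interval (lines) of the 42 tested genes in the 3 comparisons, ordered by role; red points were called and dotted lines mark the threshold of 0.5. The calls are 4 genes to the right with rhWnt3a, 4 to the left when OSMI was added, and 1 to the right and 2 to the left for both agents against vehicle.

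Of the 4 origin licensing genes, none was called in any comparison. Orc6, a subunit of the origin recognition complex and the most abundant of this group (10.5 FPKM), was at 21.5, 22.9 and 28.9 CPM in the vehicle libraries, 25.3, 36.7 and 27.3 CPM with rhWnt3a, and 26.3, 31.4 and 17.9 CPM with rhWnt3a + OSMI. Its groups overlapped in each comparison. Cdc6, which helps to load the helicase, was at 0.915, 0.891 and 0.847 CPM with vehicle, 1.46, 2.33 and 1.73 CPM with rhWnt3a, and 1.45, 0.860 and 1.28 CPM with rhWnt3a + OSMI. Every rhWnt3a library was above every vehicle library and above every library with OSMI, but the log2 fold changes of 1.05 ± 0.32 (SE; adjusted p = 0.0727) and -0.62 ± 0.31 (adjusted p = 0.258) did not pass the test. Orc1, the largest subunit of the origin complex, and Cdt1, the partner of Cdc6 in loading, had log2 fold changes of -0.13 to 0.28 over the 3 comparisons. Without vehicle replicate 3, Cdt1 was called higher with both agents against vehicle (0.55, adjusted p = 0.0337).

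The 6 genes of the MCM2-7 helicase held 2 of the 4 calls in each of the first 2 comparisons. Mcm2 (chr6:88883474-88898780, minus strand) was at 30.5, 30.3 and 38.7 CPM with vehicle, 61.3, 54.2 and 62.7 CPM with rhWnt3a, and 37.7, 36.7 and 41.0 CPM with rhWnt3a + OSMI. The rhWnt3a libraries were above all 6 others, and the remaining 2 groups overlapped. The mean rose from 33.2 ± 4.79 to 59.4 ± 4.53 CPM (SD, n = 3), a log2 fold change of 0.84 ± 0.14 (SE; adjusted p = 0.00394), and fell to 38.5 ± 2.25 CPM with OSMI, a log2 fold change of -0.62 ± 0.14 (adjusted p = 0.0329). Against vehicle, the rhWnt3a + OSMI group differed by 0.22 (95% interval -0.09 to 0.52, adjusted p = 0.324). The rise was called whichever library was left out. The decrease was lost (adjusted p = 0.0625 to 0.134) without vehicle replicate 1 or 2, any rhWnt3a library, or rhWnt3a + OSMI replicate 1 or 2. It was also lost on fitting only the 6 libraries compared (-0.60, adjusted p = 0.0526). Without the 3 libraries that lay apart, the rise was 0.99 and the decrease -0.74, and both were called.

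Mcm4 (chr16:15623897-15637400, minus strand) showed the same order at smaller size. It was at 19.6, 19.9 and 19.8 CPM with vehicle, 29.5, 27.4 and 29.4 CPM with rhWnt3a, and 19.3, 17.4 and 17.2 CPM with rhWnt3a + OSMI. The rhWnt3a libraries again lay above all others, and those with OSMI just below those with vehicle. The log2 fold changes were 0.54 ± 0.12 with rhWnt3a (SE; adjusted p = 0.0180) and -0.68 ± 0.12 on adding OSMI (adjusted p = 0.0126). The first was lost without vehicle replicate 1 or 2 or rhWnt3a replicate 1 or 3 (adjusted p = 0.0661 to 0.0875), and with no filter on low counts (0.136). The second was lost without rhWnt3a replicate 1 or 3 or rhWnt3a + OSMI replicate 2 (0.0573 to 0.0749).

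The other 4 subunits passed no test, and their levels lay closer together. Mcm7, the most abundant at 8.27 FPKM, was at 27.8, 31.8 and 40.2 CPM with vehicle, 43.7, 44.4 and 46.0 CPM with rhWnt3a, and 37.4, 37.1 and 26.5 CPM with rhWnt3a + OSMI. All rhWnt3a libraries were above all others, at log2 fold changes of 0.42 ± 0.18 (adjusted p = 0.209) and -0.41 ± 0.18 (0.208). Of the bases of its longest transcript, 81.2% match other genes at 97% identity or more, Gm5487 among them, so its reads may be shared. With OSMI added, all 6 MCM2-7 genes lay below 0, between -0.68 and -0.28 with a median of -0.41, and 5 of them had no overlap between the groups, where 51.5% of all genes lay below 0 and 17.0% did not overlap in that direction. With rhWnt3a alone 5 of 6 lay above 0, with a median of 0.46 and Mcm6 at -0.06. Without the 3 libraries that lay apart, Mcm5 (0.86, adjusted p = 0.00184) and Mcm7 (0.56, adjusted p = 6.15e-05) were also called higher with rhWnt3a, and Mcm5 higher with both agents against vehicle (0.61, adjusted p = 0.0176).

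**Figure D3:**
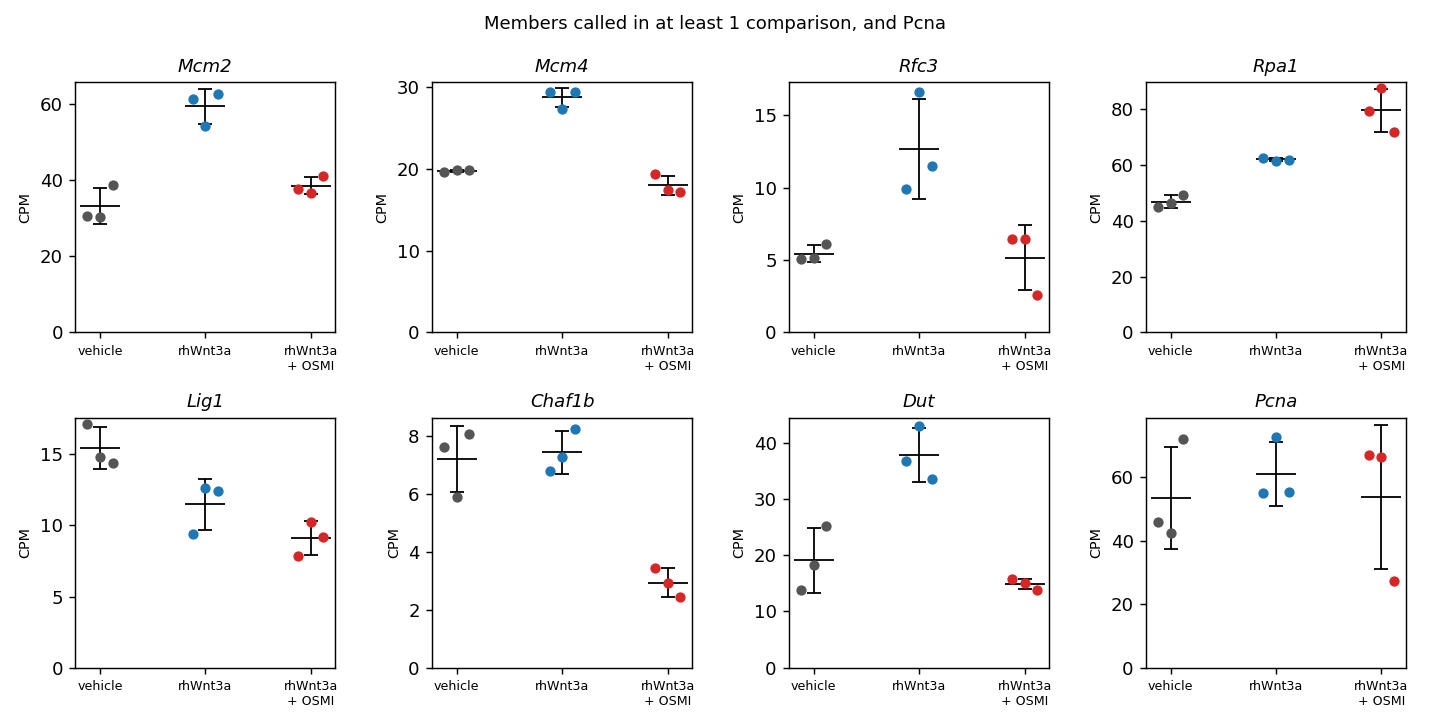
CPM of the 7 genes called in at least 1 comparison and of Pcna in each library (points) with the mean and SD of each group of 3 (lines). Mcm2, Mcm4, Rfc3 and Dut are highest with rhWnt3a, Chaf1b is lowest with OSMI, Rpa1 rises over the groups from 46.8 to 79.5 CPM on average, and Pcna overlaps in all of them.

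Among the 6 genes that activate the helicase, none was called. Gins4, a GINS subunit at 10.6 FPKM, was at 12.9, 11.6 and 14.4 CPM with vehicle, 16.4, 21.2 and 14.0 CPM with rhWnt3a, and 16.8, 14.6 and 8.44 CPM with rhWnt3a + OSMI, with overlap throughout. Gins1, another subunit, was at 1.77, 0.955 and 1.58 CPM with vehicle, 2.19, 1.76 and 2.15 CPM with rhWnt3a, and 1.03, 1.09 and 0.873 CPM with rhWnt3a + OSMI. All libraries with OSMI were below all those with rhWnt3a alone, at a log2 fold change of -1.02 ± 0.31 (adjusted p = 0.0871), which was -1.03 and called when the 3 libraries that lay apart were left out (adjusted p = 0.0492). Mcm10, which helps to start unwinding, went the other way: its rhWnt3a libraries, at 2.27 to 2.44 CPM, lay below those with vehicle (3.29 to 4.12) and with OSMI (3.49 to 3.68), without passing the test (-0.68, adjusted p = 0.0592, and 0.63, adjusted p = 0.0997). The decrease with rhWnt3a was called by DESeq2 (-0.70, adjusted p = 0.0413) and among genes with at least 10 counts in every library (-0.69, adjusted p = 0.0383). The group's median log2 fold change was 0.21 with rhWnt3a and -0.44 on adding OSMI.

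The 7 polymerase and primase genes also had no call. Pola2, the accessory subunit of polymerase alpha at 4.23 FPKM, was at 11.9, 13.6 and 9.94 CPM with vehicle, 14.0, 10.9 and 12.1 CPM with rhWnt3a, and 11.1, 11.1 and 16.2 CPM with rhWnt3a + OSMI, and its intervals spanned 0 in all 3 comparisons. Pole2, an accessory subunit of polymerase epsilon, was at 3.60, 3.05 and 2.77 CPM with vehicle, 2.73, 3.18 and 4.12 CPM with rhWnt3a, and 2.17, 1.66 and 1.22 CPM with rhWnt3a + OSMI. Every library with OSMI was below the other 6, at log2 fold changes of -0.99 ± 0.28 against rhWnt3a (adjusted p = 0.0756) and -0.90 ± 0.28 against vehicle (adjusted p = 0.0579). When the 3 libraries that lay apart were left out, both passed (-0.84, adjusted p = 0.0424, and -0.84, adjusted p = 0.0314), as they did by DESeq2 (adjusted p = 0.0238 and 0.0266). In the comparison with vehicle, 4 of the 7 genes (Pola1, Prim1, Prim2 and Pole2) had all libraries with OSMI below all those with vehicle, where this held for 19.5% of all genes.

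Of the clamp and its loader, Rfc3 was called once. Rfc3 (chr5:151642756-151651242, minus strand), a small subunit of the loader, was at 5.06, 5.15 and 6.10 CPM with vehicle, 9.90, 16.6 and 11.5 CPM with rhWnt3a, and 6.46, 6.42 and 2.56 CPM with rhWnt3a + OSMI. The rhWnt3a libraries were above all others, and the extremes were the libraries that lay apart. The log2 fold change with rhWnt3a was 1.22 ± 0.33 (SE; adjusted p = 0.0473), and that on adding OSMI, -1.30 ± 0.33, missed the threshold (adjusted p = 0.0547) but passed by DESeq2 (adjusted p = 0.00340). The call was lost on leaving out any vehicle or rhWnt3a library, or rhWnt3a + OSMI replicate 1 or 2 (adjusted p = 0.0534 to 0.161). Without all 3 libraries that lay apart it was 1.03 (adjusted p = 8.73e-05), and the decrease with OSMI was -0.74 (adjusted p = 0.00215), a smaller change that then passed.

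Pcna, whose messenger RNA is widely used as a marker of cycling cells, was at 45.9, 42.5 and 72.0 CPM with vehicle, 55.1, 72.7 and 55.5 CPM with rhWnt3a, and 67.0, 66.4 and 27.5 CPM with rhWnt3a + OSMI. The value farthest from the others in each group was that of the library that lay apart, and the groups overlapped. The log2 fold changes were 0.19, -0.19 and 0.00 in the 3 comparisons, with a 95% interval of -0.72 to 0.73 for the last, so a change within that interval could not be told from none. In the other 6 libraries, rhWnt3a + OSMI was above vehicle (0.55, adjusted p = 6.47e-06), in a fit whose p-values tend to be too small because of how libraries were left out. Pcna shares 51.4% of its transcript with the pseudogene Pcna-ps2. With rhWnt3a all 6 genes of the clamp and loader lay above 0 (median 0.15), where 54.6% of all genes did. With OSMI added 5 of 6 lay below 0 (median -0.40), where 51.5% of all genes did. Apart from Rfc3, the 95% intervals of these genes spanned 0 in both comparisons.

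Rpa1 was the gene of the 43 called higher against vehicle when both agents were given, in the fit of all 9 libraries. Rpa1 (chr11:75298166-75348324, minus strand) was at 44.96, 46.3 and 49.3 CPM with vehicle, 62.6, 61.4 and 61.8 CPM with rhWnt3a, and 79.3, 87.4 and 71.8 CPM with rhWnt3a + OSMI. The 3 groups did not overlap and rose in this order. The mean went from 46.8 ± 2.20 to 79.5 ± 7.79 CPM (SD, n = 3), a log2 fold change of 0.76 ± 0.12 (SE; adjusted p = 0.00208), which was called in all 16 other fits tried. The steps between, 0.40 ± 0.12 with rhWnt3a (adjusted p = 0.0624) and 0.36 ± 0.12 on adding OSMI (adjusted p = 0.108), did not pass. Its partners Rpa2 and Rpa3 overlapped in all comparisons, at log2 fold changes of -0.47 to 0.21, and so did Clspn, a mediator of the replication checkpoint, at 1.71, 1.08 and 1.30 CPM with vehicle, 1.28, 1.02 and 1.55 CPM with rhWnt3a, and 2.30, 1.55 and 1.51 CPM with rhWnt3a + OSMI.

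Lig1 (chr7:13277283-13311433, plus strand), the ligase that seals Okazaki fragments, went down over the groups. It was at 17.1, 14.8 and 14.3 CPM with vehicle, 9.42, 12.6 and 12.4 CPM with rhWnt3a, and 7.85, 10.2 and 9.20 CPM with rhWnt3a + OSMI. Both treated groups lay below vehicle and overlapped each other. Against vehicle, the log2 fold change with both agents was -0.76 ± 0.17 (SE; adjusted p = 0.0164), and that with rhWnt3a alone was -0.42 ± 0.17 (adjusted p = 0.193). With the 3 libraries that lay apart left out, the difference with rhWnt3a alone was also called (-0.58, adjusted p = 0.00794), and Lig1 was then the only one of the 43 genes called lower in that comparison. The call with both agents was lost without vehicle replicate 1 or 2 or rhWnt3a + OSMI replicate 1 (adjusted p = 0.0600 to 0.0751).

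Chaf1b had the largest decrease against vehicle of the 43 genes. Chaf1b (chr16:93883901-93906115, plus strand), a subunit of the CAF-1 complex that places histones on new DNA, was at 7.63, 5.92 and 8.08 CPM with vehicle, 6.81, 7.27 and 8.25 CPM with rhWnt3a, and 3.44, 2.92 and 2.45 CPM with rhWnt3a + OSMI. Vehicle and rhWnt3a overlapped, and all libraries with OSMI were below both. The mean of 2.94 ± 0.499 CPM (SD, n = 3) differed from rhWnt3a by -1.34 ± 0.21 on the log2 scale (SE; adjusted p = 0.00825) and from vehicle by -1.29 ± 0.21 (adjusted p = 0.00259), and both were called in all 16 other fits tried. With rhWnt3a alone the difference was 0.04 (95% interval -0.39 to 0.48). Chaf1a, the large subunit of the same complex, was not called and lay at -0.04 on adding OSMI and 0.49 against vehicle, but 52.5% of its exon bases overlap Ubxn6 on the other strand. Uhrf1, which carries DNA methylation over to new strands, was at 12.1, 10.6 and 9.38 CPM with vehicle, 10.03, 8.23 and 10.9 CPM with rhWnt3a, and 8.76, 9.34 and 7.63 CPM with rhWnt3a + OSMI, without a call.

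Of the 5 nucleotide supply genes, Dut had the only calls. Dut (chr2:125247190-125258608, plus strand), the enzyme that breaks down dUTP and so keeps uracil out of DNA, was at 13.8, 18.2 and 25.3 CPM with vehicle, 36.8, 42.9 and 33.5 CPM with rhWnt3a, and 15.8, 15.02 and 13.9 CPM with rhWnt3a + OSMI. The rhWnt3a libraries were above all 6 others. The mean rose from 19.1 ± 5.78 to 37.7 ± 4.78 CPM (SD, n = 3; log2 fold change 0.98 ± 0.21 SE, adjusted p = 0.0156) and fell to 14.9 ± 0.962 CPM with OSMI (-1.34 ± 0.21, adjusted p = 0.00888). The rise was lost only without vehicle replicate 2 (adjusted p = 0.0724), and the decrease was called in all 16 other fits tried.

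Rrm1, the large subunit of ribonucleotide reductase at 10.2 FPKM, was at 98.2, 92.8 and 88.6 CPM with vehicle, 118, 137 and 117 CPM with rhWnt3a, and 127, 134 and 109 CPM with rhWnt3a + OSMI. Both treated groups lay above vehicle, at 0.41 ± 0.13 each (adjusted p = 0.0808 and 0.0589). Rrm2, its small subunit, was at -0.65 on adding OSMI (adjusted p = 0.0759), with all OSMI libraries (4.42 to 5.27 CPM) below all rhWnt3a libraries (6.93 to 8.26 CPM). Tk1, which salvages thymidine, was at 0.79 on adding OSMI (adjusted p = 0.188), with its groups not overlapping either. Without the 3 libraries that lay apart, Rrm2 (-0.66, adjusted p = 0.0115) and Tk1 (0.66, adjusted p = 0.00701) passed, and Rrm2 also passed by DESeq2 (adjusted p = 0.0236). Tyms, which makes thymidylate, differed by 0.01 or less in each comparison.

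The libraries that lay apart were not apart in the same way for all genes. Vehicle replicate 3 and rhWnt3a replicate 2 were above the other libraries of their group, and rhWnt3a + OSMI replicate 3 below, for 13 genes: Orc6, Mcm6, Gins2, Gins4, Mcm10, Pcna, Rfc2, Rfc3, Rfc4, Rfc5, Rpa2, Rpa3 and Dut. Their gene length in the table had a median of 2990 bases (1136 to 7692). The opposite held for Pola2, Pole, Rfc1 and Chaf1a (median 7440, 2872 to 11160), and neither for the other 26 genes (median 4260). For 31 of the 43 genes, replicate 3 was the lowest of the rhWnt3a + OSMI group. The part of gene length in these differences was not tested.

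**Figure D4:**
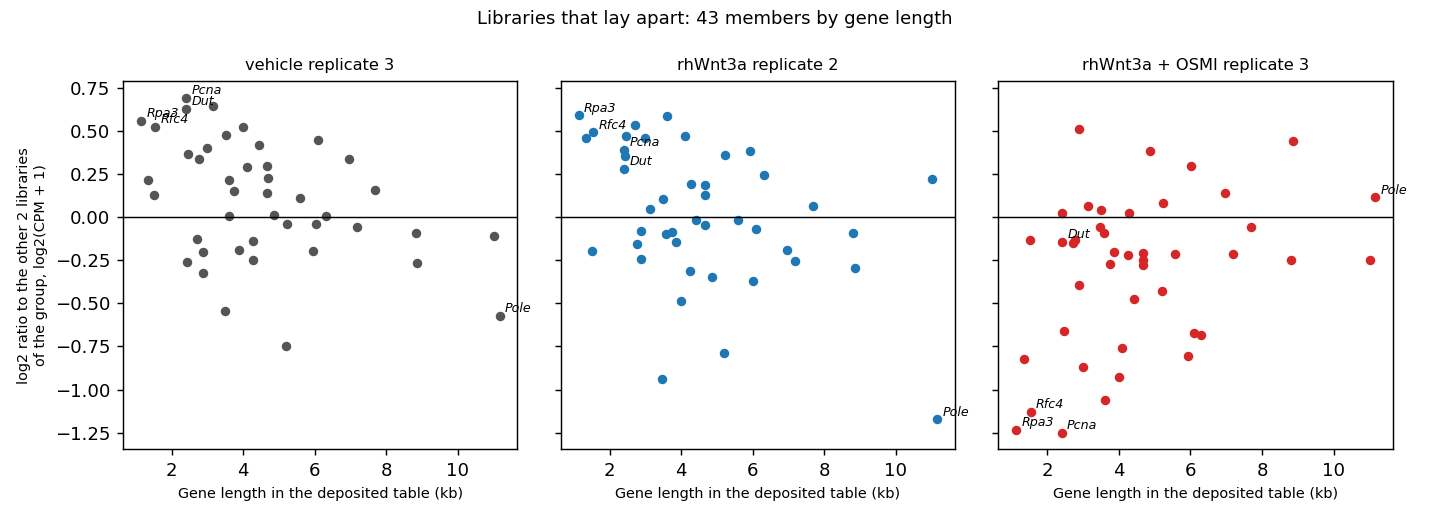
Log2 ratio, on CPM + 1, of the library that lay apart to the mean of the other 2 libraries of its group (vertical axis) against gene length in kb (horizontal axis) for the 43 genes. Short genes such as Rpa3, Rfc4 and Pcna lie above 0 in vehicle replicate 3 and rhWnt3a replicate 2 and below 0 in rhWnt3a + OSMI replicate 3, while the long gene Pole lies on the opposite side in each. Length does not sort all genes: 26 of the 43 follow neither pattern, the short Gins1 among them.

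Other genes of the same processes were kept in lists of their own. Of 41 other replication genes, 40 were tested: Wdhd1, a fork protein that joins polymerase alpha to the helicase, was higher with rhWnt3a (0.86 ± 0.20, adjusted p = 0.0249), and Pold4, the smallest subunit of polymerase delta, was lower on adding OSMI (-1.01 ± 0.25, adjusted p = 0.0488). Each call is 2.5% of the 40, where 2.92% of all genes were called higher with rhWnt3a and 3.05% lower on adding OSMI. The medians of the 40 were 0.13 and -0.07. None was called against vehicle when both agents were given (median 0.06), where 14.2% of all genes were. Of 34 other nucleotide synthesis genes, Rrm2b, the p53-induced small subunit of ribonucleotide reductase, was lower with rhWnt3a (-0.68 ± 0.17, adjusted p = 0.0361). It is 2.94% of the 34, where 5.86% of all genes were called lower. None of the 34 was called on adding OSMI, where 4.74% of all genes were. Against vehicle, both agents left Cad (0.77) and Pfas (0.66), which act in pyrimidine and purine synthesis, higher, and Ctps2 (-0.77) and Prps2 (-0.52) lower. These are 5.88% in each direction, where 4.84% of all genes were called higher and 9.34% lower. Of the E2F, DP and retinoblastoma families, 12 of 13 genes were tested, and the only call was Tfdp2, a partner of E2F, higher with both agents against vehicle (0.85 ± 0.20, adjusted p = 0.0195). It is 8.33% of the 12, where 4.84% of all genes were called higher.

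Genes of mitosis, the other main cell cycle group, were also compared, in a list drawn up with earlier results of these data known. All 20 lay below 0 with rhWnt3a (median -1.21), 10 of them called lower and none higher. Of all tested genes, 45.4% lay below 0 there and 5.86% were called lower. All 20 mitosis genes lay above 0 on adding OSMI (median 1.36), 9 of them called higher and none lower. Of all tested genes, 48.5% lay above 0 there and 1.69% were called higher. Mki67, the gene of the proliferation marker Ki-67, was at 22.8, 17.6 and 7.91 CPM with vehicle, 4.38, 2.33 and 6.16 CPM with rhWnt3a, and 22.3, 21.4 and 16.1 CPM with rhWnt3a + OSMI. The rhWnt3a libraries were below all others, at log2 fold changes of -1.91 ± 0.42 (adjusted p = 0.0176) and 2.22 ± 0.42 on adding OSMI (adjusted p = 0.0177). With both agents against vehicle, none of the 20 was called (median 0.20), where 14.2% of all genes were. Of their 16 promoters, none held the E2F letters, 87.5% held a CCAAT box and 68.8% the element TTTGAA. Mcm2, Mcm4, Rfc3 and Dut went the other way, but they were picked by their calls with rhWnt3a, so their place is no test of an opposition. Of the 42 tested replication and nucleotide supply genes, 11 (26.2%) had all rhWnt3a libraries above all vehicle libraries, where 12.2% of all genes did. These 11 include Mcm2, Mcm4, Rfc3 and Dut. For 2 genes (4.76%) all rhWnt3a libraries lay below all vehicle libraries, where 14.2% of all genes did. Mcm10 lay on the side of the mitosis genes in both comparisons (-0.68 and 0.63).

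**Figure D5:**
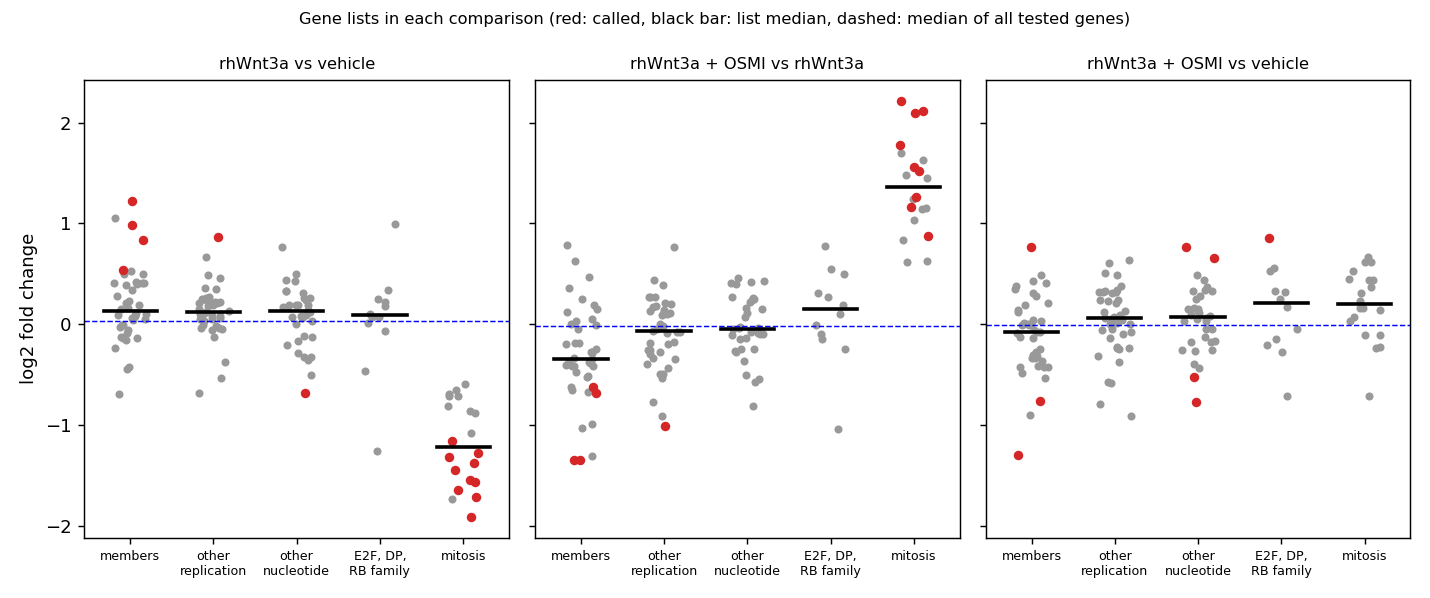
Log2 fold change of each tested gene in 5 lists for the 3 comparisons (points; red, called; black bar, list median; dashed line, median of all tested genes). The 20 mitosis genes lie below 0 with rhWnt3a and above 0 on adding OSMI, while the medians of the 42 replication and nucleotide supply genes are 0.13 and -0.34.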

How the data were processed

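The authors had poly-A selected RNA of 9 ST2 samples sequenced. The processing notes of the submitters name CASAVA, fastp, HISAT2 2.0.5, featureCounts 1.5.0-p3 and mm10; the strand setting is not given in the sources used here. The deposited table (43 columns) gives raw whole-number counts per gene, left by the authors without normalization. The deposited FPKM are the authors' counts per gene length and library total, and were used only for levels between genes. All 18 per-sample columns were used. Columns of the authors' comparisons (group means, log2 fold changes, p-values) were not used.

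Counts were fitted in R 4.3.3 with edgeR 4.0.16 (filterByExpr at minimum count 10 and total 15, TMM, glmQLFit on all 9 libraries, two-sided glmQLFTest, Benjamini-Hochberg adjustment over 14004 genes in each comparison, common dispersion 0.0452). Calls needed an adjusted p below 0.05 together with a log2 change of over 0.5 either way; the scripts were tested on simulated data. A level of 3 counts is 0.169 to 0.191 CPM, which covers counting error only. The study calls its replicates biological, but the labels do not say whether they were separate cultures, so p-values measure the spread between these samples, which may be technical. No 2 libraries held identical counts. Alternatives were DESeq2 1.42.0, other scaling, filters, samples and call rules, a replicate block and leaving out libraries.

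The genes and all lists were chosen with earlier results of these data known. Genes given in every library are those called, and in each of 9 roles the most abundant by FPKM and the one with the largest change on adding OSMI; Mcm10, Rrm2, Tk1, Tyms and others outside this rule are named after their values were seen. Of the other lists, called genes are named, at most 4 a list and comparison. Coordinates are those of the table (GRCm38), equal to GENCODE M21 for 42 of the 43 genes. Transcripts were compared with BLAST 2.17.0 (97% identity, 100 bases or more), and 25 genes neither overlapped another gene nor had a near-identical copy. Promoters are from RefSeq (GRCm38.p6).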

Additional observations from a re-analysis of the deposited data

How the results depend on the processing

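None of the 11 calls of the 7 genes called among the 43 changed direction under the alternatives tried. Calls in the other lists were not followed over the alternatives. The genes called were 4, 4 and 3 for rhWnt3a against vehicle, rhWnt3a + OSMI against rhWnt3a, and rhWnt3a + OSMI against vehicle, out of 1230, 664 and 1986 of all genes. DESeq2 gave 7 for the second comparison (1289 of all genes), no filter on low counts gave 1481 of all genes there, and fitting only the 6 libraries compared gave 345. Without the 3 libraries that lay apart, 7, 9 and 6 of the genes were called (2557, 1789 and 3351 of all). Unadjusted p-values gave 7, 11 and 4 (2155, 2271 and 3186), and a log2 threshold of 1 gave 1, 2 and 1 (796, 380 and 1118). The fits that each leave out a library gave 1 to 4, 2 to 4 and 2 to 4 (716 to 1506, 203 to 764 and 1218 to 2328 of all genes). The cause of these differences was not tested, apart from the fewer samples and changed thresholds that the alternatives themselves set. The median log2 fold change of the genes kept its sign with rhWnt3a (0.10 to 0.36) and on adding OSMI (-0.39 to -0.19) in every fit, and lay between -0.16 and 0.03 for both agents against vehicle.

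Same-numbered libraries did not deviate together (correlations of their deviations from the group means from -0.49 to 0.439), so the numbers were not taken to pair them. With a replicate block 2, 2 and 3 genes were called (809, 233 and 1297 of all): Mcm2 and Dut with rhWnt3a, Dut and Chaf1b on adding OSMI, and Rpa1, Lig1 and Chaf1b against vehicle.

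The call rule itself barred changes under 0.5, the size of most genes here. Without the fold threshold the same 4, 4 and 3 genes were called, at a median SE of 0.21. Cdc6, Clspn, Gins1 and Fen1 rest on few counts.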
